A study of Mus musculus with 6 samples.

Results

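Socs1, Socs2, Socs3 and Cish, 4 suppressor of cytokine signalling (SOCS) genes, were followed in single cells of the invariant natural killer T (iNKT) lineage of the mouse, T cells that recognise lipids on CD1d. They were chosen by gene symbol, 4 of 27998 genes listed, because earlier results of these libraries had shown them to vary between organs and with Il2rb and Bcl2, so their levels in the organs are given as a description, with no test. The cells came from liver, spleen and lymph node of wild-type (WT) C57BL/6 mice aged 5 weeks, with no allele or treatment that set the organs apart, and each organ had 2 libraries, which the study calls biological repeats. CD8- B220- cells were sorted on TCR-b and the CD1d-Tetramer. How many mice made up a library, their sex and the processing day are not given in the sources used here, and the labels call the molecule nuclear RNA.

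SOCS proteins are negative feedback inhibitors. A cytokine receptor activates Janus kinases (JAKs), which phosphorylate STAT transcription factors, and STATs switch on SOCS genes whose products then bind the receptor or its kinases and mark them for degradation. CIS, the product of Cish, and SOCS2 are classically induced through STAT5, for instance downstream of the interleukin-2 and interleukin-15 receptors or the growth hormone receptor. SOCS1 restrains interferon and common gamma chain cytokine signalling by inhibiting JAKs, and SOCS3 restrains receptors that use gp130, such as the interleukin-6 receptor. In iNKT cells interleukin-15, read through the receptor chain encoded by Il2rb, supports survival, and Bcl2 encodes an anti-apoptotic protein.

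In the GRCm38 assembly (GENCODE vM21, matched by Ensembl identifier) Socs1 (ENSMUSG00000038037) lies on the minus strand at chr16:10782240-10785536, Socs2 (ENSMUSG00000020027) on the minus strand at chr10:95385362-95417180, Socs3 (ENSMUSG00000053113) on the minus strand at chr11:117966079-117970047, and Cish (ENSMUSG00000032578) on the plus strand at chr9:107296026-107302784. All are protein-coding genes. Socs1, Socs2 and Socs3 overlap no other annotated gene, and Cish overlaps Gm17040 and Gm17041 on the opposite strand.

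RefSeq promoter windows on GRCm38.p6, each of 300 bases with 250 before and 50 after the start site, were held for 3 of the 4 members. They are shown because STAT binding in front of these genes is the textbook route of their induction. Capitals mark matches, on either strand, to TTCNNNGAA, the core of the gamma-activated STAT element, to TTCNNNNGAA, the wider spacing that STAT6 prefers, or to GAAANNGAAA, the core of the interferon-stimulated response element. The windows are Cish at chr9:107296409-107296708 on the plus strand, Socs1 at chr16:10785487-10785786 on the minus strand and Socs3 at chr11:117969317-117969616 on the minus strand.
Cish: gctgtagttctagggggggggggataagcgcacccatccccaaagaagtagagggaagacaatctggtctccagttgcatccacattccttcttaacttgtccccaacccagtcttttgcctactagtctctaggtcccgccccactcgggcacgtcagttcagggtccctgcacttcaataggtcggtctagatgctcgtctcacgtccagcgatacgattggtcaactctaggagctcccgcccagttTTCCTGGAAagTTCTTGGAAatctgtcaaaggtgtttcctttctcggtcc
Socs1: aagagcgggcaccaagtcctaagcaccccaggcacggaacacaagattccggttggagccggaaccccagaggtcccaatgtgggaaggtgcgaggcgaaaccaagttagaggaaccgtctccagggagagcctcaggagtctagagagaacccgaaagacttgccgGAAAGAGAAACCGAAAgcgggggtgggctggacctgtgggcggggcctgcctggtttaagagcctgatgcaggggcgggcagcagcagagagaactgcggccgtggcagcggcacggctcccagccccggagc
Socs3: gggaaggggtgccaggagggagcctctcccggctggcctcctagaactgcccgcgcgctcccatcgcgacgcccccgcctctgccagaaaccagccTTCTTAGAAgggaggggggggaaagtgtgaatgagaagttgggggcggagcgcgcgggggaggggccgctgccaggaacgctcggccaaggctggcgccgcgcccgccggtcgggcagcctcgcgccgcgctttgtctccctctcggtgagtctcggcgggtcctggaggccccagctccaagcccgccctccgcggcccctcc

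The Cish window held 2 matches to TTCNNNGAA, TTCCTGGAA and TTCTTGGAA. They began at bases 251 and 262 of the window, at its RefSeq start site and just after it. The Socs3 window held 1 match to the same motif, TTCTTAGAA, from base 97. The Socs1 window held none of these but 2 overlapping matches to GAAANNGAAA, GAAAGAGAAA from base 168 and GAAACCGAAA from base 174. None of the 3 windows matched TTCNNNNGAA. Among 32851 promoter windows of this length 8.30% held TTCNNNGAA, 6.95% held TTCNNNNGAA and 3.44% held GAAANNGAAA. The Cish and Socs3 windows lie inside the gene spans given above, so their RefSeq start sites are not the outer ends of those spans. The motif matches are a description of the letters and not of binding.

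After filtering, 16532 of 16587 cell barcodes remained, 5662 from liver, 5384 from spleen and 5486 from lymph node, with 4758138 to 10870838 unique molecular identifiers (UMIs) per library. The liver libraries were deeper, with median counts of 2880 and 3592 UMIs per cell against 1470 to 1730.5 in the other 4 libraries. The T cell genes Cd3d, Cd3e and Cd3g were abundant in every library and Zbtb16, the iNKT lineage factor PLZF, was present at 71.5 to 100.2 UMIs per 1000000 (CPM). Pairs of libraries shared 6 to 20 cell barcodes. Xist was counted in liver and spleen libraries only and Y-linked genes in lymph node libraries only, so sex and organ cannot be told apart in comparisons with lymph node. Levels below are CPM over all UMIs of a library outside ribosomal and haemoglobin genes.

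Socs2 was the member with the widest difference between organs. It reached 264 and 233 CPM in the 2 liver libraries, 58.5 and 60.7 in spleen, with 59.0 and 54.8 in lymph node, from 1884, 1424, 227, 219, 220 and 200 UMIs. Both liver libraries stood far above the other 4, while the spleen and lymph node libraries overlapped. The log2 fold change was 1.98 ± 0.123 (SE, n = 2 libraries per organ) for liver against spleen, which is 3.96-fold, and 2.07 ± 0.124 for liver against lymph node, or 4.20-fold. Between spleen and lymph node it was 0.09 ± 0.135, smaller than its standard error. Ranked by fold change among 10250 genes, Socs2 came 61st from the top for liver against spleen and 102nd for liver against lymph node.

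Cish was also highest in liver. It reached 96.1 and 71.8 CPM in liver, 25.8 and 19.4 in spleen, with 23.1 and 25.2 in lymph node. The lowest liver library was still above the other 4, although relative to their mean the 2 liver libraries lay further apart than for Socs2. The log2 fold change of Cish was 1.81 ± 0.164 (SE) for liver against spleen, 1.74 ± 0.163 for liver against lymph node and -0.07 ± 0.194 for spleen against lymph node. Its ranks among the 10250 genes were 79th and 158th in the comparisons with liver. The value for spleen against lymph node changed sign when spleen replicate 2 was left out, to 0.10.

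Socs1 varied less. Its level was 142 and 121 CPM in liver, 79.2 and 73.2 in spleen, with 88.2 and 93.0 in lymph node, so the 3 organs did not overlap and spleen was lowest. The log2 fold change was 0.72 ± 0.122 (SE) for liver against spleen, 0.49 ± 0.120 for liver against lymph node and -0.23 ± 0.128 for spleen against lymph node. The difference between spleen and lymph node was less than 2 standard errors.

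Socs3 had a different order. Its level was 25.5 and 22.6 CPM in liver, 15.2 and 12.5 in spleen, with 20.1 and 26.1 in lymph node, from 45 to 182 UMIs per library. Liver and lymph node overlapped and both lay above spleen. The log2 fold change was 0.72 ± 0.206 (SE) for liver against spleen, 0.01 ± 0.191 for liver against lymph node and -0.71 ± 0.218 for spleen against lymph node. Over leaving out single libraries the value for liver against lymph node ran from -0.16 without lymph node replicate 1 to 0.20 without lymph node replicate 2, so it carried no direction.

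**Figure D1:**
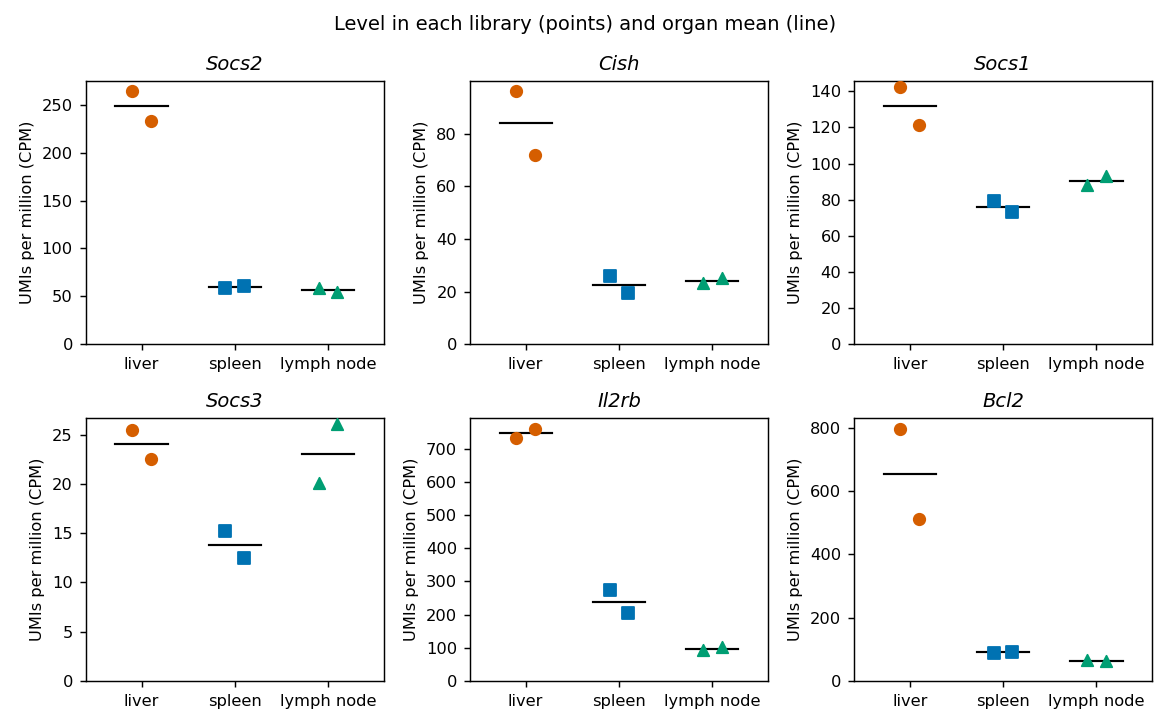
Level of the SOCS genes, Il2rb and Bcl2 in each library, in CPM on a linear axis from 0, with 1 point per library and a line at the mean of the 2 libraries of an organ. Both liver libraries lie above all others for Socs2 (233 and 264 CPM), Cish, Socs1, Il2rb and Bcl2, whereas for Socs3 liver and lymph node overlap.

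Non-overlap by itself was common. In liver against spleen 38.2% of genes with at least 10 UMIs had both liver libraries above both spleen libraries, as all 4 members had, and in liver against lymph node 39.2% did, as Socs1, Socs2 and Cish had. Lymph node above spleen without overlap, as seen for Socs1 and Socs3, held for 30.2% of genes. By size, the median absolute log2 fold change over all genes was 0.30 for liver against spleen and 0.37 for liver against lymph node, beside values of 1.74 to 2.07 for Socs2 and Cish.

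Il2rb and Bcl2, the genes named with the members by the rule, were also highest in liver. Il2rb, the interleukin-2 and interleukin-15 receptor beta chain, was at 733 and 760 CPM in liver, 274 and 204 in spleen, with 93.0 and 102 in lymph node. Bcl2 was at 795 and 512 CPM in liver, 87.9 and 91.8 in spleen, with 66.5 and 62.3 in lymph node. Il2rb also differed between spleen and lymph node by a log2 fold change of 1.32 ± 0.133 (SE), and Bcl2 by 0.50 ± 0.169. Because the 6 libraries fall into 3 organs, no correlation over libraries is given.

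Hepatocytes, in which Socs2 and Cish respond to growth hormone, were measured by 7 marker genes. Together these gave 32 and 16 UMIs per liver library, 7 and 6 per spleen library, and 16 and 7 per lymph node library, against 1424 or more for Socs2 in each liver library. Ttr was at 0 in every library, and Alb, the albumin gene, had 2 and 1 UMIs in liver and none elsewhere. The part of hepatocyte RNA in the liver levels of Socs2 and Cish was not tested. Myeloid markers summed to 68.7 and 118 CPM in liver, 56.5 and 40.5 in spleen, with 28.4 and 142 in lymph node. Most of the liver and spleen sums was Fcer1g, at 62.9 and 93.2 CPM in liver and 52.6 and 38.3 in spleen. Fcer1g is also a leading gene of the Gzma-led iNKT cluster below. Lyz2 gave 107.5 CPM in lymph node replicate 2, against 9.39 in replicate 1. The sums thus cannot compare the myeloid content of the organs. The 4 B cell markers detected summed to at most 16.0 CPM.

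In single cells the members were sparse. Before any correction for depth, 40.2% and 33.3% of liver cells held a Socs2 UMI, against 7.44% and 7.57% of spleen cells and 7.39% and 6.32% of lymph node cells. Of the Socs2-positive liver cells, 59.6% and 65.5% held exactly 1 UMI, and the highest count in a cell was 9. Since depth differed, each cell was thinned to 1000 UMIs, which left out 0 and 9 liver, 144 and 169 spleen and 265 and 488 lymph node cells that were shallower.

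At this equal depth a Socs2 UMI was found in 16.7% and 16.2% of liver cells, 5.30% and 5.23% of spleen cells, and 4.89% and 4.75% of lymph node cells. The separation of liver thus held at matched depth. The 95% exact binomial (Clopper-Pearson) intervals, which cover counting error only, reached at most 1.44 percentage points to either side. Thinned shares of Cish were 7.46% and 5.05% in liver, 1.66% and 1.73% in spleen, with 1.52% and 1.69% in lymph node, with intervals reaching at most 1.04 points. The 2 liver libraries differed for Cish by more than their intervals, yet both stayed above the other 4.

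For Socs1 the thinned shares were 8.64% and 8.13% in liver, 5.73% and 5.87% in spleen, with 6.07% and 6.95% in lymph node. The unthinned shares were 27.3% and 20.4% in liver against 9.34% to 11.1% elsewhere, so thinning narrowed the gap but kept liver above the other organs. For Socs3 the thinned shares were 1.79% and 1.61% in liver, 1.16% and 1.09% in spleen, with 1.73% and 1.91% in lymph node. Unthinned, Socs3 had seemed highest in liver, at 5.68% and 4.33% against 1.69% to 3.02% elsewhere. At equal total depth liver and lymph node overlapped, as they did in the CPM. No cell type that lacks these genes was sorted, so a share due to free RNA could not be set from such a type.

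Clustering without the members, Il2rb and Bcl2 gave 9 clusters of iNKT cells and a mixed B cell and myeloid cluster of 30 cells. Most cells of liver fell in cluster 0, led by Mmp9, most of spleen in cluster 1, led by Art2b and Cd160, and lymph node cells mainly in the unnamed cluster 2, led by Dusp1 and Gadd45b, and in cluster 3 (iNKT17-like). Clusters were therefore compared by number, in libraries with at least 50 of their cells. Within the liver libraries, Socs2 was highest in cluster 0, at 337 ± 4.85 CPM (SD, n = 2). It was at 220 CPM in cluster 1, which had enough cells (129) in 1 liver library, and at 210 ± 18.2 in cluster 5, led by Gzma, which overlapped. Ifit-like cells, which carry interferon-induced genes, were at 87.1 and 201 CPM and overlapped cluster 5 as well. It was at 73.6 ± 23.6 CPM in cycling-like cells, 71.2 ± 2.00 in NF-kB-like cells and 45.8 ± 29.5 in RTE-like cells, which resemble recent thymic emigrants. In these last 3 both libraries lay below those of clusters 0, 1 and 5.

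In thinned liver cells a Socs2 UMI was found in 20.7% ± 1.03 (SD, n = 2) of cells in cluster 0, 15.5% in cluster 1 (1 library), 12.3% ± 1.16 in cluster 5, 6.88% ± 3.37 of Ifit-like, 4.37% ± 0.985 of NF-kB-like and 2.69% ± 1.37 of RTE-like cells. Cycling-like liver cells were at 5.82% ± 1.87. Cluster 0 thus lay above cluster 5, and cluster 5 above these 4 kinds of cells, beyond the spread between libraries, while Ifit-like, cycling-like and NF-kB-like cells overlapped. In spleen the level was 90.5 ± 0.979 CPM in cluster 1, 62.6 ± 5.00 in cluster 5 and 3.94 ± 1.74 in RTE-like cells, the last from 5 UMIs in 676 cells. In lymph node Socs2 was higher in iNKT17-like cells, at 81.9 ± 10.1 CPM, than in cluster 2, at 50.1 ± 1.81. In RTE-like cells of lymph node it was at 17.0 ± 14.8 CPM, from 4 UMIs.

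Cish was spread more evenly over the liver clusters. It was at 92.2 ± 17.4 CPM (SD, n = 2) in cluster 0, 88.1 ± 7.53 in NF-kB-like cells, 83.1 ± 32.3 in cluster 5, 55.8 ± 0.406 in RTE-like and 45.3 ± 8.57 in cycling-like cells. The first 3 overlapped. NF-kB-like liver cells thus stood near the top for Cish and among the lowest for Socs2. Thinned shares of Cish in liver clusters ran from 3.30% ± 2.23 in RTE-like to 8.17% ± 6.78 in Ifit-like cells, and the part of free RNA in this even spread was not tested. Outside liver Cish was at 25.8 and 29.5 CPM in cluster 1 of spleen, 27.2 ± 0.792 in cluster 2 of lymph node and 24.5 ± 3.99 in its iNKT17-like cells, which overlapped. It was at 6.46 ± 4.26 CPM in RTE-like cells of spleen, from 9 UMIs in 676 cells, and at 4.57 ± 6.46 in RTE-like cells of lymph node and 4.04 ± 5.72 in cycling-like cells of spleen, from 1 and 3 UMIs.

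Socs1 was highest in Ifit-like cells, at 279 ± 32.1 CPM (SD, n = 2) in liver and 121 ± 42.6 in spleen, and at 137 CPM in the lymph node library with enough of them. NF-kB-like liver cells followed at 184 ± 26.2 CPM. In cluster 0 of liver Socs1 was at 130 ± 13.1 CPM and in iNKT17-like cells of lymph node at 113 ± 13.6, against 83.5 ± 4.40 in cluster 2 of the same organ. Socs1 was thus highest in Ifit-like liver cells, whereas Socs2 was highest in cluster 0 of liver. For Socs3 most clusters held under 35 UMIs, and those with more ran from 11.5 ± 0.035 CPM in cluster 1 of spleen to 25.1 ± 0.778 in cluster 0 of liver, which did not overlap.

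**Figure D2:**
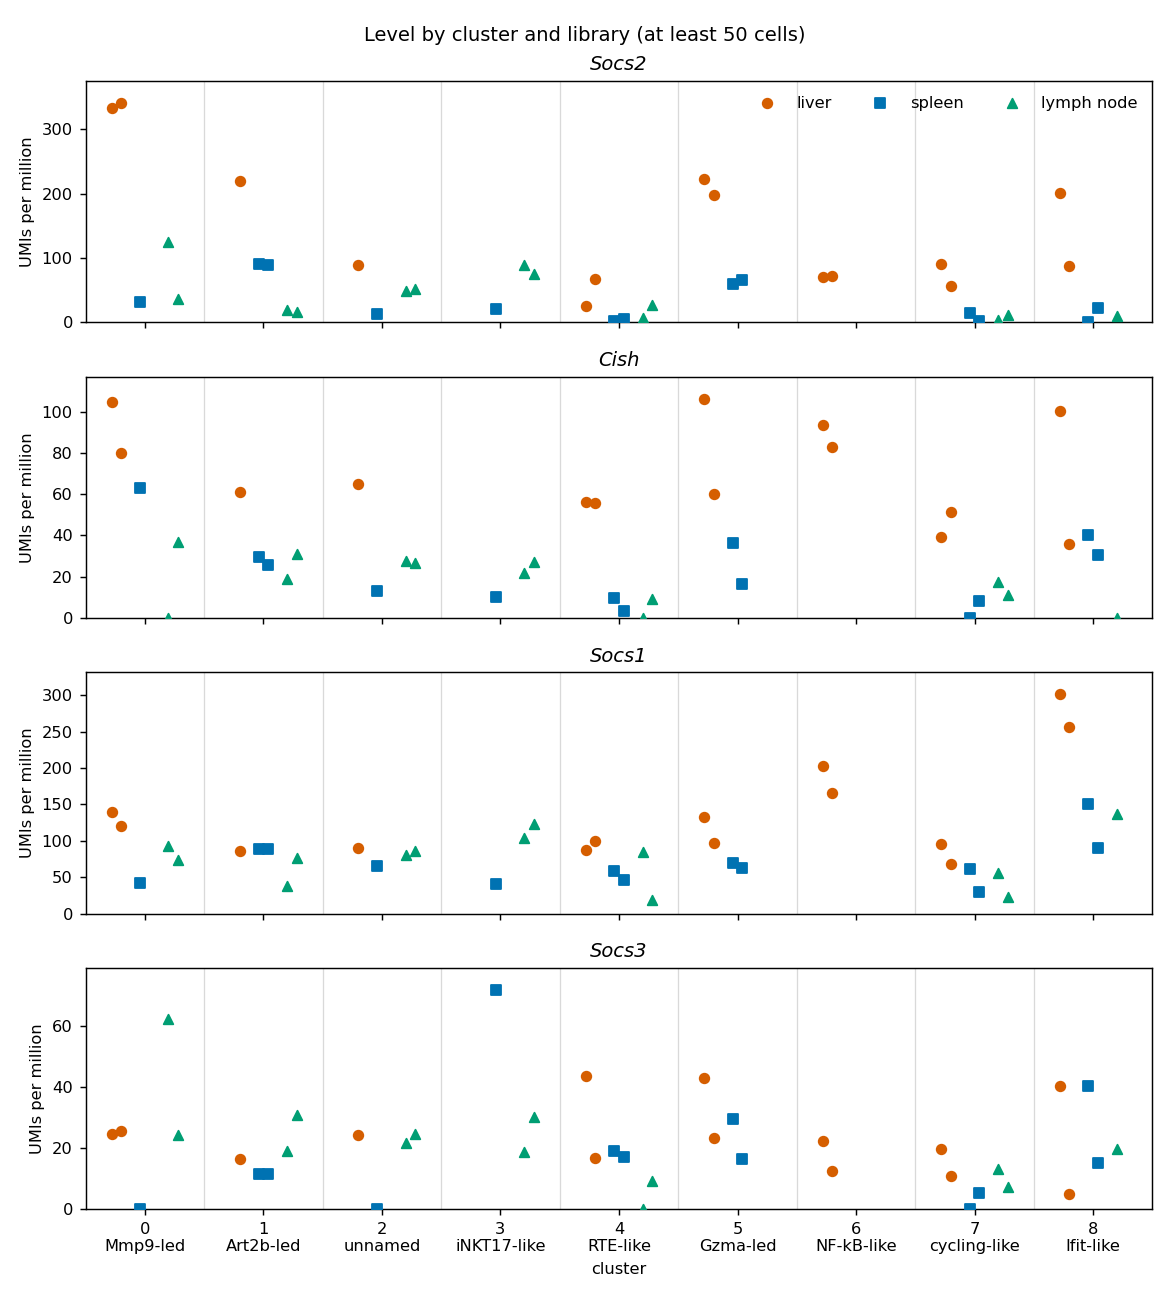
Level of each SOCS gene by cluster and organ, in CPM on a linear axis from 0, with 1 point per library that had at least 50 cells of the cluster. Socs2 is highest in liver cells of cluster 0 (337 CPM on average), Socs1 in Ifit-like liver cells (279 CPM), and the means of Cish lie between 45.3 and 92.2 CPM in the liver clusters with 2 libraries.

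Clusters 4 (RTE-like), 5, 7 (cycling-like) and 8 (Ifit-like) had enough cells in both libraries of liver and of spleen. Both liver libraries lay above both spleen libraries in 4 of 4 clusters for Socs1, 4 of 4 for Socs2, 3 of 4 for Cish and 1 of 4 for Socs3. Among all genes with at least 10 UMIs this held for 23.9%, 29.2%, 30.1% and 23.7% in clusters 4, 5, 7 and 8. In cluster 5, where counts were largest, Socs2 was at 210 CPM in liver and 62.6 in spleen, a ratio of 3.36, and Socs1 at 115 and 65.5, a ratio of 1.76. Cish was at 106 and 60.3 CPM in liver and 36.1 and 16.5 in spleen, the latter from 11 and 4 UMIs, and is given no ratio. For Socs1 the ratios in clusters 4, 7 and 8 were 1.79, 1.81 and 2.31. Socs1 and Socs2 were thus higher in liver than in spleen outside the liver's largest cluster too, although several spleen values of Socs2 and Cish in clusters 4, 7 and 8 rested on 0 to 5 UMIs and are given no ratio. Against lymph node, clusters 0, 4 and 7 could be compared. The share of all genes without overlap is not given here for these clusters against lymph node. Lack of overlap in them is thus a description with no background beside it. Socs1 was at 130 CPM in liver and 83.4 in lymph node in cluster 0. It was at 93.6 and 51.4 in cluster 4, and at 82.0 and 39.4 in cluster 7. Cish was at 92.2 and 18.3, 55.8 and 4.57, and 45.3 and 14.3 CPM in the same clusters. Neither gene overlapped in any of them. Socs2 was at 337 CPM in liver and 80.7 in lymph node in cluster 0, and at 73.6 and 7.76 in cluster 7, without overlap. It overlapped in cluster 4, at 45.8 and 17.0. Socs3 was at 25.1 CPM in liver and 43.4 in lymph node in cluster 0, which overlapped. In cluster 4 it was at 30.1 and 4.57, without overlap, and in cluster 7 at 15.3 and 10.2, which overlapped. The lymph node values of the members in these clusters rested on 1 to 19 UMIs over both libraries together. Cish in clusters 0 and 4 and Socs3 in cluster 4 had 0 UMIs in 1 of the lymph node libraries. The mix of cells within a cluster can differ between organs. At Leiden resolution 1.0, 92 of the 141 liver cells of cluster 4 fell in 1 finer cluster and 35 in another, against 606 and 33 of the 676 spleen cells, and the part of this in the values was not tested.

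Across cells of a library the members went with Il2rb and Bcl2 only weakly. For Socs2 and Bcl2, Pearson's r of log-normalised values over cells lay between 0.017 and 0.187 in the 6 libraries, and for Socs2 and Il2rb between 0.016 and 0.102. At 1000 UMIs per cell, the share of cells with a Socs2 UMI was 21.0% and 19.9% among liver cells with a Bcl2 UMI and 13.9% and 14.6% among those without. It was 7.39% and 9.47% against 5.15% and 4.88% in spleen, and 11.3% and 13.5% against 4.56% and 4.34% in lymph node, where 13 and 14 cells held both. The share was thus higher with Bcl2 in 6 of 6 libraries. With an Il2rb UMI it was 17.2% and 18.1% against 16.5% and 15.0% in liver, and it was higher in 6 of 6 libraries, although by as little as 5.24% against 5.23% in spleen replicate 2.

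Within the largest cluster of each organ the r of Socs2 with Bcl2 ran from -0.001 to 0.127, and with Il2rb from 0.021 to 0.086. There the share with a Socs2 UMI was higher with Bcl2 in 6 of 6 libraries but with Il2rb in 4 of 6, at 19.7% with against 20.2% without in liver replicate 1 and 6.29% against 6.65% in spleen replicate 2.

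Over all cells of a library, the share with a Socs1 UMI was higher with Bcl2 in 6 of 6 libraries, with r between 0.022 and 0.072, and with Il2rb in 5 of 6, with r between 0.018 and 0.054. Within the largest clusters it was higher with Il2rb in 6 of 6. For Cish over all cells r lay between -0.015 and 0.071 with Bcl2 and between -0.009 and 0.044 with Il2rb, and for Socs3 between -0.020 and 0.035 and between -0.016 and 0.038. In counts this sparse such values are a description, and cells of a library share its depth and free RNA. Between members, again over all cells, r was as low. Socs2 with Cish had r between -0.008 and 0.030, and Socs1 with Socs2 between -0.007 and 0.072.

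**Figure D3:**
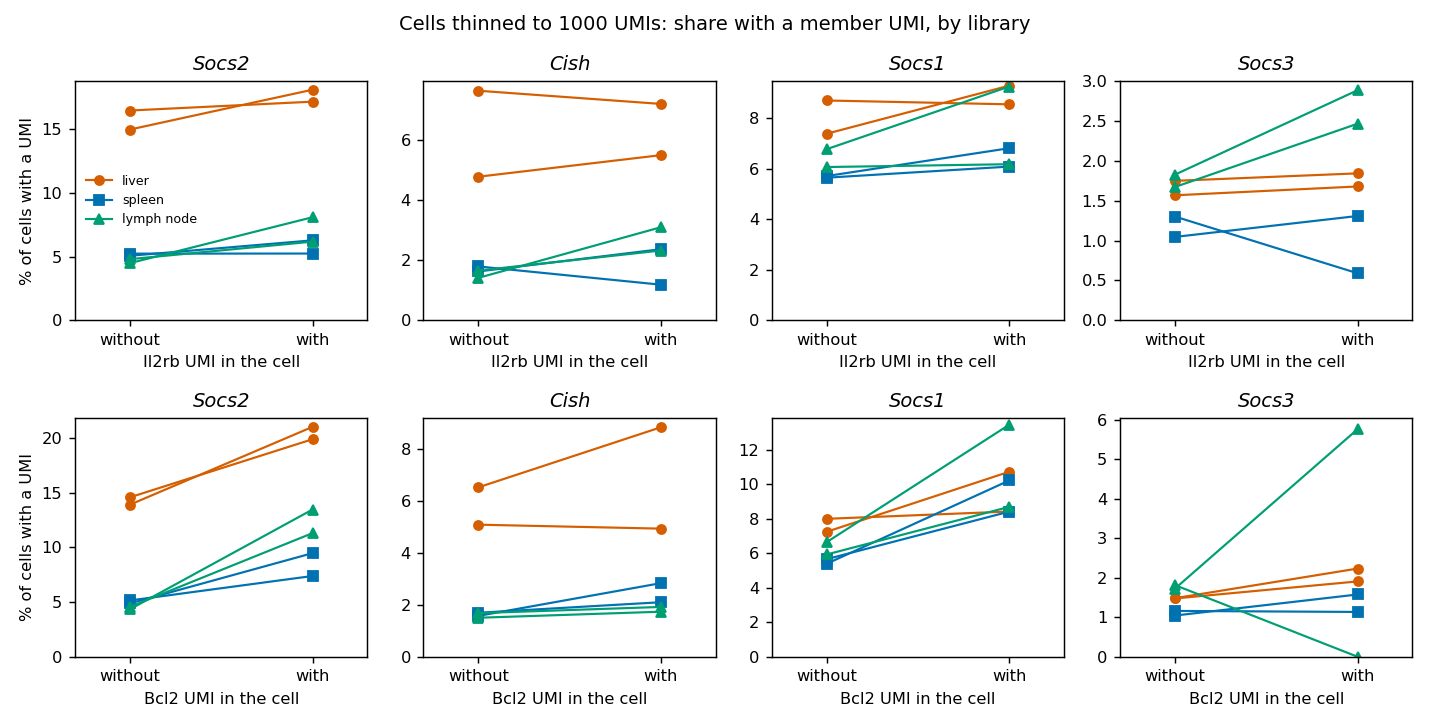
Share of cells, each thinned to 1000 UMIs, that held a UMI of the SOCS gene among cells without and with an Il2rb UMI (upper row) or a Bcl2 UMI (lower row), in percent on linear axes from 0, with 1 line per library. For Socs2 every line rises with Bcl2, from 4.34% to 14.6% without to 7.39% to 21.0% with it, while the lines of Cish and Socs3 go in both directions.

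Over 40 profiles, each the summed counts of 1 library and cluster with at least 50 cells, the genes most like each member were found among 7628 genes by Pearson's r of log2(CPM + 1). The profiles share libraries and clusters, so r is a description. Closest to Socs2 were Ifngr1, an interferon-gamma receptor chain, with r = 0.85, Runx3, a T cell transcription factor, with 0.75, Pik3cd, a phosphoinositide 3-kinase catalytic subunit, with 0.74, Ptk2b with 0.72 and Fgl2 with 0.72. Bcl2 was the 7th closest, with r = 0.71, and Il2rb the 87th, with 0.57. Closest to Socs1 were Gbp4, an interferon-inducible GTPase, with r = 0.79, Ly6e with 0.74, Slfn8 with 0.74, H2-T23 with 0.73 and Icam1 with 0.73. Gbp4, Ly6e, Slfn8 and H2-T23 are known interferon-induced genes.

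For Cish the closest were Ap3d1 with r = 0.74, Tufm with 0.72, Ankrd13c with 0.70, Tmem106b with 0.70 and Itgal, an integrin chain of LFA-1, with 0.70, and Il2rb came 54th with r = 0.61. For Socs3 they were Ccnl2 with r = 0.72, Appl2 with 0.69, Cdk13 with 0.67, Zkscan14 with 0.66 and Spata2 with 0.65. Among themselves the members were less alike, with r = 0.50 for Socs2 and Cish, 0.44 for Socs1 and Socs2, and 0.28 for Socs1 and Socs3.

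To place the SOCS genes in their pathway, 75 genes were listed, namely receptors, kinases, STATs, inhibitors, target genes and 13 immediate early and stress genes. Of the 75, 74 were tested between organs on counts summed per library with edgeR's quasi-likelihood test (Benjamini-Hochberg adjustment over 10250 genes, threshold 0.05). In liver against spleen 35 of 74 passed, against 25.9% of all genes, of which 26 were higher in liver, against 12.8%, and 9 lower, against 13.1%. In liver against lymph node 52 of 74 passed, against 37.5%, of which 36 were higher in liver, against 18%, and 16 lower, against 19.6%. In spleen against lymph node 31 of 74 passed, against 18.2%, of which 13 were higher in spleen, against 7.89%, and 18 lower, against 10.3%. The immediate early and stress genes gave 12 of these 18, and 11 of the 16 lower in liver than in lymph node. Those lower counts are thus mostly not receptors, kinases, STATs, inhibitors or targets. The lists were chosen with earlier results of these libraries known.

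Among 18 cytokine receptor genes tested, 10 passed in liver against spleen, 6 higher and 4 lower in liver. Il2ra, the interleukin-2 receptor alpha chain, was at 57.1 and 56.1 CPM in liver, 16.5 and 17.2 in spleen, with 30.8 and 37.6 in lymph node. It rose in liver against spleen by a log2 fold change of 1.67 ± 0.168 (SE), with an adjusted p of 8.06e-09 by edgeR. Ifngr1, the gene most like Socs2, was at 488 and 502 CPM in liver, 159.6 and 170 in spleen, with 167 and 225 in lymph node, and rose in liver by 1.51 ± 0.127 against spleen and by 1.29 ± 0.125 against lymph node.

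Il10ra, a chain of the interleukin-10 receptor, also rose in liver against spleen, by 2.51 ± 0.333 on the log2 scale. Il6ra, the interleukin-6 receptor alpha chain, had a log2 fold change of -2.39 ± 0.237 in liver against spleen and -3.76 ± 0.212 against lymph node. Il7r, Il23r and Ifngr2 were also lower in liver than in both other organs. Il7r was at 272 and 262 CPM in liver, 599 and 505 in spleen, with 1092 and 1128 in lymph node. Its log2 fold change was -1.12 ± 0.119 in liver against spleen and -2.11 ± 0.121 against lymph node, opposite in direction to Il2ra. iNKT17-like cells, which express Il23r, made up 0.821% and 1.19% of liver, 2.02% and 1.43% of spleen and 32.6% and 35.9% of lymph node cells, and their part in the receptor values was not tested. In spleen against lymph node 4 receptors were higher and 5 lower, with Il12rb2 at 2.27 ± 0.233 and Il23r at -3.71 ± 0.316.

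Of the 4 Janus kinases, Tyk2 alone passed in liver against spleen, at 0.52 ± 0.195 with an adjusted p of 0.0485 by edgeR, and DESeq2 called 0 of the 4. Jak1, Jak2 and Tyk2 rose in liver against lymph node. Of the 7 STAT genes, Stat2, Stat3 and Stat4 rose in liver against spleen, by 0.79 ± 0.225, 0.66 ± 0.128 and 0.54 ± 0.131, and none fell, and DESeq2 called 2 of the 7. Stat5a and Stat5b, which encode the STATs that induce Socs2 and Cish, passed in no comparison, at 0.47 and 0.21 in liver against spleen and 0.13 and 0.23 in liver against lymph node. These are levels of RNA, and STAT activity was not measured.

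Few of the other inhibitors of the pathway passed the test. Of 13 tested, among them Socs4, Socs5, Socs6, Socs7, the PIAS genes, phosphatases and Usp18, 0 passed in liver against spleen by edgeR, with 2 at an unadjusted p under 0.05 and 0 by DESeq2. In liver against lymph node 1 passed, Sh2b3, the adaptor LNK that restrains JAK2, at 0.74 ± 0.208, and DESeq2 called 0. In spleen against lymph node 0 passed by edgeR, with 0 at an unadjusted p under 0.05 and 0 by DESeq2. Their log2 fold changes in liver against spleen lay between -0.24 and 0.69, with Socs5 at 0.46 and Socs7 at 0.69.

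Of 9 further STAT5 targets, 7 passed in liver against spleen, 6 higher and 1 lower. Gzmb, the cytotoxic protease granzyme B, was at 159.5 and 211 CPM in liver and 11.3 and 5.82 in spleen, a log2 fold change of 4.34 ± 0.218. Pim1, a survival kinase, rose by 1.10 ± 0.125 and Bcl2l1, which encodes BCL-XL, by 0.96 ± 0.148. Osm, the cytokine oncostatin M, fell by 1.03 on the log2 scale. Pim1 did not follow Socs2 in lymph node, where it was at 392 and 330 CPM against 300 and 313 in liver.

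Of 10 further interferon-gamma targets, a class to which Socs1 belongs, 8 rose in liver against spleen and 10 in liver against lymph node by edgeR, and none fell, with 7 and 9 called by DESeq2. Gbp3 had log2 fold changes of 1.10 ± 0.250 and 1.75 ± 0.270, and Irf1, an interferon-induced transcription factor, of 0.83 ± 0.130 and 1.37 ± 0.134. In spleen against lymph node 4 passed, whereas Socs1 was lower in spleen by 0.23 on the log2 scale.

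Immediate early and stress genes, which handling of cells is known to induce, also differed between the organs. Of 13, 12 passed in spleen against lymph node, all lower in spleen, and 11 were lower in liver than in lymph node. Fos was at 12.9 and 8.34 CPM in liver, 26.0 and 21.9 in spleen, with 554 and 579 in lymph node. The heat shock gene Hspa1a was at 32.3 and 38.4 CPM in liver, 0.516 and 0.277 in spleen, with 45.6 and 47.2 in lymph node. Hspa1a, like Socs1 and Socs3, was lowest in spleen, and Fos was lowest in liver. Their part in the levels of the SOCS genes was not tested.

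**Figure D4:**
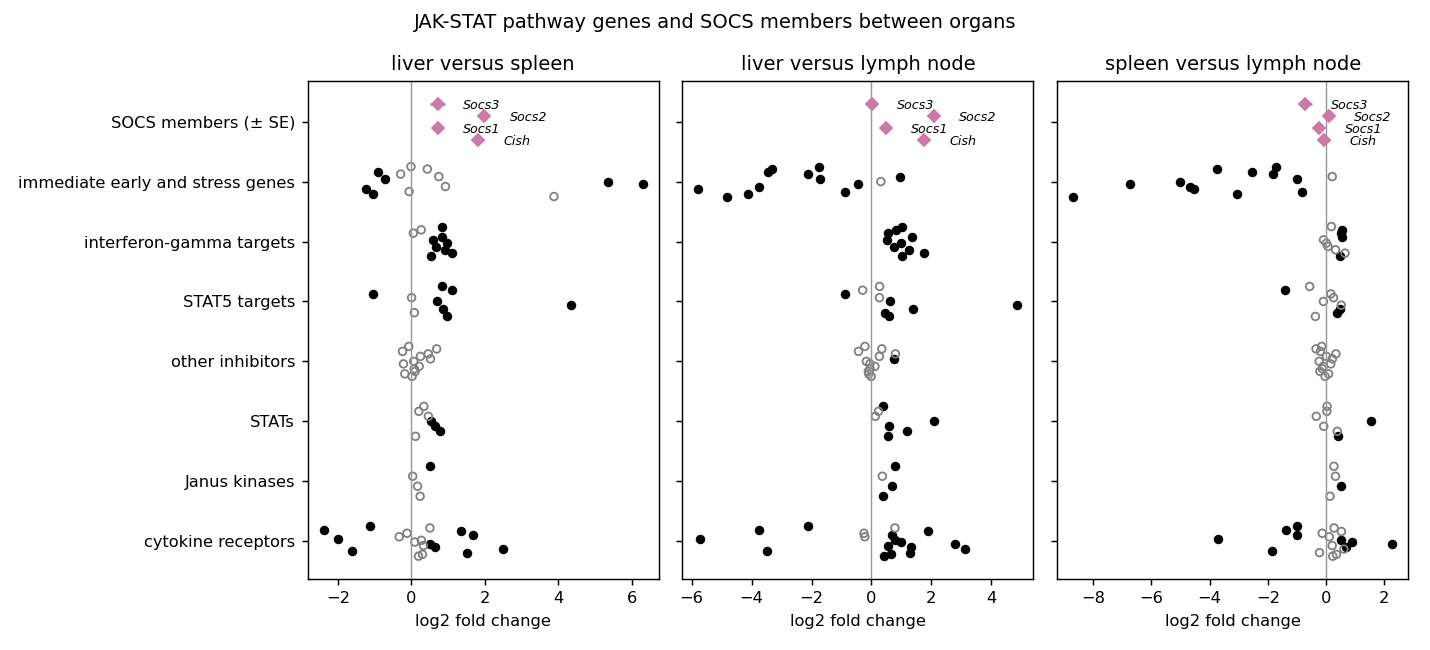
log2 fold change of the 74 listed genes tested, by list, immediate early and stress genes included, and of the SOCS genes with their standard errors, in the 3 comparisons of organs. Filled points passed edgeR's test at an adjusted p below 0.05 and open points did not, and the SOCS genes (diamonds) carry no test. Socs2 and Cish lie between 1.74 and 2.07 in both comparisons with liver, while the other inhibitors lie between -0.24 and 0.69 in liver against spleen.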

How the data were processed

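Per the labels, iNKT cells were run on the 10x Genomics Chromium 3′ v2 kit. The submitters' processing notes name Cell Ranger 3.1.0, Seurat and mm10. The deposited matrices hold raw counts of UMIs per gene and cell barcode, which the authors did not normalise. The other deposited values are cell barcodes and gene identifiers with symbols. The annotation version is not given in the sources used here.

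Cells were kept with 300 to 4000 genes and at most 15% of UMIs from mitochondrial genes, which removed 55 barcodes, and no doublets were removed. Counts were summed per library, without 113 ribosomal and haemoglobin genes, and tested with edgeR 4.0.16 (TMM, quasi-likelihood, filterByExpr with a minimum count of 10, all 6 libraries in 1 fit, R 4.3.3). DESeq2 1.42.0 was an alternative. The edgeR step was tested on simulated data. Fold changes are log2 with the standard error from the fit.

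Clusters came from scanpy 1.11.5 and leidenalg 0.10.2 (20 components of 3000 variable genes, 20 neighbours, resolution 0.5), without the members, Il2rb and Bcl2, and were named from marker lists, except clusters 0, 1, 2 and 5, which are given by number and leading genes. A comparison of the iNKT1-like class between organs had been planned. It was not made, because the leading genes of clusters 0 and 1 held no marker of the iNKT1 list. Those of cluster 5 held more markers of the iNKT1 list than of the Gzma list.

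The members and lists were chosen with earlier results of these data known. Named genes were the members, Il2rb and Bcl2, examples from the called genes of each pathway list with the largest fold changes, and the 5 genes most like each member. Socs5, Socs7 and genes named to place a member were added after their values were seen.

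Replicates are separate samples in the labels, but nothing says which mice they came from, so p-values measure the spread between these libraries. With 2 libraries per organ an exact permutation test could not reach 0.05, so none was run.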

Additional observations from a re-analysis of the deposited data

Results flagged for a closer look

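In 3 cases a member's order between spleen and lymph node turned from one cluster to another, with both libraries of each organ on the same side. None of these differences between clusters was tested, and each rested on few UMIs. How many of all genes turn in this way was not counted, so the cases are a description. Socs2 was higher in spleen in cluster 1 (90.5 against 17.2 CPM) and lower in spleen in RTE-like cells (3.94 against 17.0 CPM), from 5 and 4 UMIs in the latter. Socs3 was lower in spleen in cluster 1 (11.5 against 24.9 CPM) and higher in RTE-like cells (18.1 against 4.57 CPM), where lymph node held 1 UMI. Socs3 was also lower in spleen in cycling-like cells (2.70 against 10.2 CPM), from 2 and 5 UMIs. RTE-like cells of the 2 organs were not alike in finer clusters. At Leiden resolution 1.0, 154 of the 223 lymph node cells fell in a cluster led by Dapl1, whereas 606 of the 676 spleen cells fell in another, led by Ccr7 and Igfbp4.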

How the results depend on the processing

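Over 13 alternatives per comparison (DESeq2, no filter on low counts, ribosomal genes kept, all deposited barcodes, without the 2% of cells with the most UMIs, libraries thinned to one total, a replicate block and each library left out) the log2 fold changes of Socs2 in liver ran from 1.93 to 2.06 against spleen and from 2.01 to 2.14 against lymph node. Those of Cish ran from 1.63 to 2.02 and from 1.55 to 1.92, and those of Socs1 from 0.64 to 0.81 and from 0.40 to 0.58. Socs3 ran from 0.61 to 0.85 against spleen. Changes of sign came only for Cish in spleen against lymph node (1 of 13 alternatives) and Socs3 in liver against lymph node (5 of 13).

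Genes called were 2656 in liver against spleen (1446 by DESeq2; 1386 to 2423 with single libraries left out, lowest without liver replicate 1, with 1396 without spleen replicate 2), 3848 in liver against lymph node (2408 to 4055, lowest without lymph node replicate 2) and 1869 in spleen against lymph node (1137 by DESeq2; 1017 to 1946, lowest without lymph node replicate 2). Genes called from the pathway lists, immediate early and stress genes included, stayed within 31 to 40, 44 to 54 and 24 to 34.

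Thinning cells to 1000 UMIs moved the mean share of positive cells in liver, spleen and lymph node from 36.8%, 7.50% and 6.86% to 16.5%, 5.26% and 4.82% for Socs2, from 17.6%, 3.08% and 3.12% to 6.26%, 1.70% and 1.61% for Cish, from 23.9%, 9.86% and 10.8% to 8.39%, 5.80% and 6.51% for Socs1, and from 5.01%, 1.91% and 2.78% to 1.70%, 1.12% and 1.82% for Socs3. Socs3, with 45 to 182 UMIs per library, had the fewest counts of the members.

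Deviations from the organ means correlated weakly between organs for the same replicate number, by 0.086, 0.083 and 0.068. Such values cannot show whether the replicate numbers pair the libraries, since the mice are not known. With the replicate block 3070, 4170 and 2138 genes and 40, 54 and 34 pathway genes were called, and the fold changes of the members moved by 0.01 or less. The fold changes within the iNKT1-like class and their alternatives, Leiden resolutions 0.3 and 1.0 included, were not run, since the class could not be compared.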
